A study of Arabidopsis thaliana with 12 samples.

Results

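COR15A (AT2G42540), COR15B (AT2G42530) and RD29A (AT5G52310) are 3 cold-responsive genes of Arabidopsis thaliana, each read here by 1 probe set among the 22746 tested on Affymetrix ATH1 arrays. COR15A (probe set 263497_at) and COR15B (263495_at) were found by their names in the platform's gene table. Probe set 248337_at was taken as that of RD29A by its ID, since the table used here has no entry for it. It is therefore called the RD29A probe set 248337_at, and its gene name was not checked against a sequence. All 3 were tested with no filter on low values.

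When leaves are chilled, CBF (also called DREB1) transcription factors bind a C-repeat or dehydration-responsive element in the promoters of a set of cold-regulated (COR) genes and raise their transcription. COR15A and COR15B are neighbouring genes for small hydrophilic proteins of the chloroplast stroma that protect membranes during freezing. RD29A encodes a hydrophilic protein and is widely used as a reporter gene for cold, drought and the hormone abscisic acid, because its promoter answers to CBF factors and to abscisic acid.

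The study asked how far the cold response, and the CBF pathway in particular, depends on RDM4, a protein that associates with RNA polymerase II and acts in RNA-directed DNA methylation. Leaf RNA was taken from 2-week-old seedlings raised under 16 h days at 23 °C and 8 h nights at 18 °C, after 0, 3 or 48 h at 4 °C. Each array held RNA from at least 30 pooled seedlings of a plate. There were 6 groups of 2 arrays, which are wild type (WT) and the rdm4 mutant at each of the 3 times, 12 arrays in all. The titles call the wild type C24, whereas the source names and the ecotype field give Col for every array, including those of the mutant. The labels therefore do not settle which accession was used, or whether it was the same in both genotypes. If it was not, genotype and accession cannot be told apart. The mutant allele is not named, and the genotype field of the rdm4 arrays names an RDM4 construct under the 35S promoter instead of a mutation. For replicate 2 the description and the title of an array disagree on its treatment, and the title was followed. RDM genes were found in screens with a luciferase reporter driven by the RD29A promoter, and the labels do not say whether these plants carry one.

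The r between the replicates of a group, over all probe sets, was 0.997 to 0.999, and the array medians lay between 6.33 and 6.43 on the log2 scale. The 2 replicates of a group came from different growth chambers. The p-values measure the spread between replicates, pooled over all 6 groups and moderated with that of the other probe sets. The arrays labelled WT and rdm4 stood in opposite relation at 3 h and at the other times. Of 2937 probe sets with a called difference between genotypes at all 3 times, 36.6% were higher, lower and higher in rdm4 at 0, 3 and 48 h, and 40.6% were lower, higher and lower. The labels were not checked on the RDM4 transcript, which was not analysed here. Whether the genotype labels of the 3 h arrays were exchanged was not tested. Means over both genotypes at a time do not depend on which of its arrays carry which genotype label, so they are given beside each genotype's own values. No unchilled plants were sampled at 3 or 48 h, so chilling cannot be told apart from time of day at 3 h or from age. Fewer cells of a type and less RNA per cell cannot be told apart in such bulk samples.

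To describe the tissue of the samples, 4 leaf markers with a named probe set were read. The group means of these, RCA, LHCB4.1, LHCB4.2 and AT2G26500, lay between 10.5 and 13.96. The 4 named root markers were also read. PYK10 lay between 10.6 and 12.5, AT5G17820 between 4.75 and 8.03, EXPA7 between 4.29 and 4.94 and EXPA18 between 4.94 and 5.58. In each group PYK10 was above the 95th percentile of all probe sets. It was lowest in WT at 0 h, at 10.60, where that percentile was 10.57. These levels do not establish that the samples held leaf tissue alone.

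COR15A gave a bright signal in every group and rose with 48 h of chilling in both genotypes. Its log2 signal was 12.46 and 12.30 on the WT arrays at 0 h, 12.07 and 12.22 at 3 h, and 14.05 and 14.06 at 48 h. On the rdm4 arrays it was 10.96 and 11.08 at 0 h, 13.43 and 13.39 at 3 h, and 13.61 and 13.60 at 48 h. The lowest arrays were those of rdm4 at 0 h and the highest those of WT at 48 h, and no 2 groups overlapped. The share of all probe sets without such overlap was not counted. From the lowest to the highest group mean COR15A spanned 3.04 log2 units, or 8.21-fold, while the median probe set spanned 0.54. At 48 h in WT it was the probe set of rank 6 by brightness on both arrays, close to the highest values of the arrays, 14.37 to 14.46. In the order of its 6 group means, 1 step was not called, that from rdm4 at 3 h to rdm4 at 48 h (0.20 ± 0.08, limma adjusted p = 0.054), although the arrays did not overlap.

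COR15B, the neighbour of COR15A, followed nearly the same order over a smaller span of 2.20 log2 units, or 4.59-fold. Its log2 signal was 12.19 and 12.11 in WT at 0 h, 12.29 and 12.21 at 3 h, and 13.56 and 13.53 at 48 h. The rdm4 arrays gave 11.35 and 11.34, then 13.28 and 13.20, and lastly 13.13 and 13.12 at the same times. As for COR15A, rdm4 at 0 h was lowest and WT at 48 h highest. The steps between WT at 0 h and 3 h (0.10 ± 0.07, limma adjusted p = 0.233) and between rdm4 at 48 h and 3 h (adjusted p = 0.175) were not called, although the arrays of these neighbouring groups did not overlap. Over the 6 group means COR15A and COR15B correlated with r = 0.989, a description over 6 groups that share the same arrays. Whether the probe set of one reads transcript of the other was not tested.

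The RD29A probe set 248337_at had another pattern, in which 2 groups stood far above the other four. Its log2 signal was 4.85 and 4.75 in WT at 0 h, 9.31 and 9.15 at 3 h, and 5.39 and 5.65 at 48 h. The rdm4 arrays gave 6.12 and 5.86, then 4.84 and 4.80, and lastly 10.76 and 10.57 at the same times. The bright groups were thus WT at 3 h and rdm4 at 48 h. WT at 0 h and rdm4 at 3 h overlapped (difference 0.02 ± 0.11, limma adjusted p = 0.931), and every other pair of neighbours in the order differed, by at least 0.47. In these 2 lowest groups 31.2% to 32.6% of the probe sets of an array were dimmer, near the dimmest 30%, so that changes from or to them are of uncertain size. The span was 5.86 log2 units, or 58.2-fold, the rank 9 of all 22746 probe sets. Over the 6 group means 248337_at correlated with COR15A at r = 0.07 and with COR15B at r = 0.06.

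**Figure D1:**
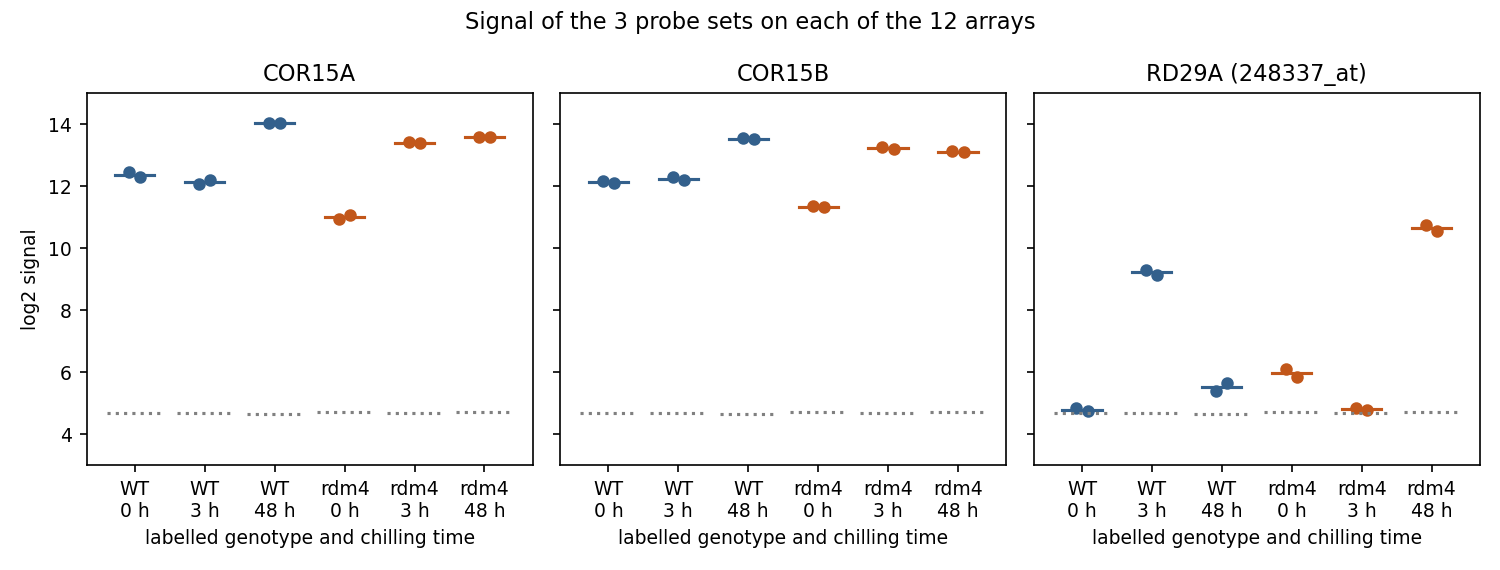
Log2 signal of COR15A, COR15B and the RD29A probe set 248337_at on each array (points) with group means (bars), for WT in blue and rdm4 in orange. Dotted lines mark the level below which the dimmest 30% of each group's probe sets lie. COR15A and COR15B lie between 10.96 and 14.06 on all arrays, whereas 248337_at is above 9 only in the groups labelled WT at 3 h and rdm4 at 48 h.

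The first comparison asks how the 3 genes answered 3 h of chilling. Differences are log2 differences ± SE from limma over all 12 arrays with 2 arrays per group, and a difference with a Benjamini-Hochberg adjusted p under 0.05 over all probe sets is a call. In the arrays labelled WT, COR15A fell by 0.23 ± 0.08 (limma adjusted p = 0.0266) and COR15B was at 0.10 ± 0.07 (adjusted p = 0.233). The call on COR15A was lost when WT 0 h replicate 1 was left out (-0.15, limma adjusted p = 0.212). It was also lost when replicate 1 of WT at 3 h was left out (-0.16, limma adjusted p = 0.194), and when only the compared arrays entered the fit. Probe set 248337_at rose by 4.43 ± 0.11 there (adjusted p = 2.66e-11), the rise or fall of rank 5 by size. Of all probe sets 46.8% were called in this comparison.

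In the arrays labelled rdm4, COR15A and COR15B were higher at 3 h and 248337_at was lower. COR15A rose by 2.39 ± 0.08 (limma adjusted p = 2.64e-10), or 5.24-fold, and COR15B by 1.89 ± 0.07 (adjusted p = 4.30e-10), or 3.71-fold. Probe set 248337_at fell by 1.18 ± 0.11 (adjusted p = 2.97e-06). All 3 were called, against 40.0% of all probe sets. The difference of the 3 h responses, rdm4 minus WT, was 2.62 ± 0.11 for COR15A, 1.79 ± 0.09 for COR15B and -5.60 ± 0.16 for 248337_at, each called (largest limma adjusted p = 2.47e-08), in a comparison where 43.2% of all probe sets were.

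In the mean of both genotypes, which does not rest on the genotype labels, all 3 were higher at 3 h. COR15A rose by 1.08 ± 0.06 (limma adjusted p = 7.34e-09), COR15B by 1.00 ± 0.05 (adjusted p = 2.88e-09) and 248337_at by 1.63 ± 0.08 (adjusted p = 4.05e-09). Of all probe sets 42.5% were called, and rises were called for 19.0%. Each of these means lies between 1 large change and 1 small or opposite change, as the values by genotype show. At 3 h the 4 arrays of COR15A covered 12.07 to 13.43 and those at 0 h 10.96 to 12.46, so the times overlapped.

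After 48 h of chilling COR15A and COR15B were higher in both genotypes. The rise of COR15A in WT was 1.68 ± 0.08 (limma adjusted p = 2.11e-09), or 3.20-fold, while rdm4 showed 2.59 ± 0.08 (adjusted p = 3.31e-11), or 6.0-fold. For COR15B the WT rise was 1.39 ± 0.07 (adjusted p = 2.33e-09), or 2.63-fold, and the rdm4 rise 1.78 ± 0.07 (adjusted p = 2.09e-10), or 3.43-fold. For both genes the 4 arrays at 48 h lay above the 4 at 0 h, and the share of all probe sets that separate likewise was not counted. Probe set 248337_at was higher by 0.72 ± 0.11 in WT (adjusted p = 1.14e-04), or 1.65-fold, starting from a dim level. In rdm4 its rise was 4.67 ± 0.11 (adjusted p = 4.52e-12), or 25.5-fold. All 3 were thus called higher in each genotype, against 24.6% of all probe sets in WT and 22.8% in rdm4 (50.4% and 50.5% in either direction). These calls were also made when the 3 h arrays were left out of the fit.

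The rise at 48 h was larger in rdm4 for each of the 3. The difference of the 48 h responses, rdm4 minus WT, was 0.91 ± 0.11 for COR15A (limma adjusted p = 7.62e-05), 0.39 ± 0.09 for COR15B (adjusted p = 0.00976) and 3.95 ± 0.16 for 248337_at (adjusted p = 4.06e-09). Of all probe sets 22.2% were called, 9.47% in this direction. For COR15A and COR15B the rdm4 arrays started lower and did not reach the WT level at 48 h. The WT level of COR15A at 48 h lies near the top of the arrays' range, and how far a ceiling of the signal bears on this difference was not tested. In the mean of both genotypes COR15A rose by 2.13 ± 0.06, COR15B by 1.59 ± 0.05 and 248337_at by 2.70 ± 0.08 at 48 h (largest adjusted p = 1.32e-11), where 57.7% of all probe sets were called and 27.4% were higher.

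**Figure D2:**
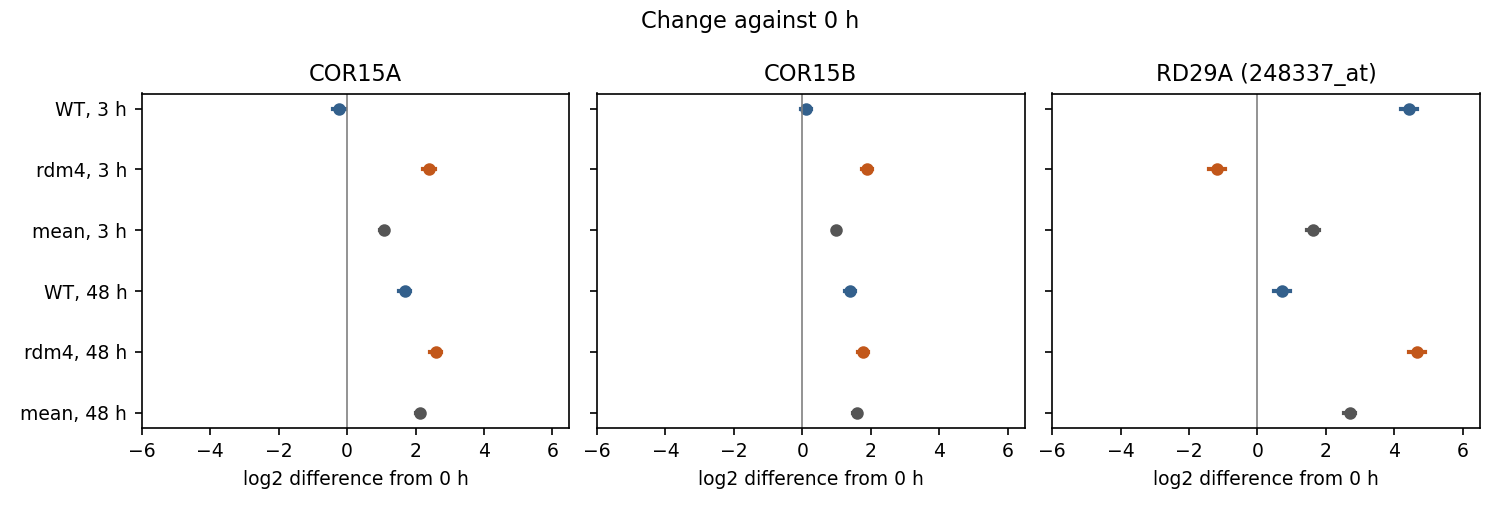
Log2 difference from 0 h (points) with 95% confidence intervals from limma (lines) after 3 h and 48 h of chilling, in WT (blue), rdm4 (orange) and the mean of both (grey). At 3 h COR15A is at -0.23 in WT and 2.39 in rdm4 while 248337_at is at 4.43 and -1.18, and at 48 h all 6 values of the genotypes are above 0.

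Between 3 h and 48 h the course differed by genotype label. In WT, COR15A rose by 1.91 ± 0.08 and COR15B by 1.29 ± 0.07, and 248337_at fell by 3.71 ± 0.11 (largest limma adjusted p = 9.42e-09), with 45.3% of all probe sets called. In rdm4, COR15A was at 0.20 ± 0.08 (95% interval 0.03 to 0.37, adjusted p = 0.054) and COR15B at -0.11 ± 0.07 (-0.26 to 0.03, adjusted p = 0.175), and 248337_at rose by 5.85 ± 0.11 (adjusted p = 2.08e-12), rank 2 by size in a comparison with 51.3% of all probe sets called. The call on COR15A in rdm4 depended on the setting, and it passed after repeated quantile normalization (0.27, limma adjusted p = 0.0120), after centring each array (0.22, adjusted p = 0.0304) and under 3 other fits, and also without any 1 of the 4 arrays at 0 h (largest adjusted p = 0.0498). The average over genotypes of 48 h minus 3 h was 1.05 ± 0.06 for COR15A, 0.59 ± 0.05 for COR15B and 1.07 ± 0.08 for 248337_at (largest limma adjusted p = 2.42e-07). Of all probe sets 51.8% were called, 25.2% as higher. For 248337_at this average joins a fall of 3.71 in WT and a rise of 5.85 in rdm4 and describes neither genotype. The averages of COR15A and COR15B rest mostly on the rise in WT.

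The second question is how the genotypes differed at each time. Without chilling, COR15A was lower in rdm4 by -1.36 ± 0.08 (limma adjusted p = 1.36e-07), or 2.57-fold, and COR15B by -0.81 ± 0.07 (adjusted p = 2.34e-06), or 1.75-fold. Probe set 248337_at was higher in rdm4 by 1.19 ± 0.11 (adjusted p = 7.19e-06). All 3 were called, against 29.8% of all probe sets.

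At 3 h each of these differences had the opposite sign. COR15A was higher in rdm4 by 1.26 ± 0.08 (limma adjusted p = 2.06e-07) and COR15B by 0.99 ± 0.07 (adjusted p = 3.41e-07). Probe set 248337_at was lower by -4.41 ± 0.11 (adjusted p = 2.73e-10), or 21.3-fold, rank 2 of all probe sets by size. Here 36.7% of all probe sets were called, 17.6% higher and 19.1% lower. Higher calls made up 47.9% of the calls, and 60.2% when each array was centred on its median.

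At 48 h the signs were those of 0 h again. COR15A was lower in rdm4 by -0.45 ± 0.08 (limma adjusted p = 6.49e-04) and COR15B by -0.42 ± 0.07 (adjusted p = 3.09e-04). The RD29A probe set 248337_at was higher by 5.14 ± 0.11 (adjusted p = 2.75e-11), or 35.3-fold, the largest difference between the genotypes of any of the 22746 probe sets at this time. Calls covered 35.0% of all probe sets. The differences at 0 h and 48 h do not use the 3 h arrays, other than through the shared estimate of the spread, and were called in fits of the compared arrays alone as well. COR15A and COR15B thus shared their signs with the 1191 probe sets that were lower, higher and lower in rdm4, and 248337_at shared its signs with the 1075 that were higher, lower and higher.

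**Figure D3:**
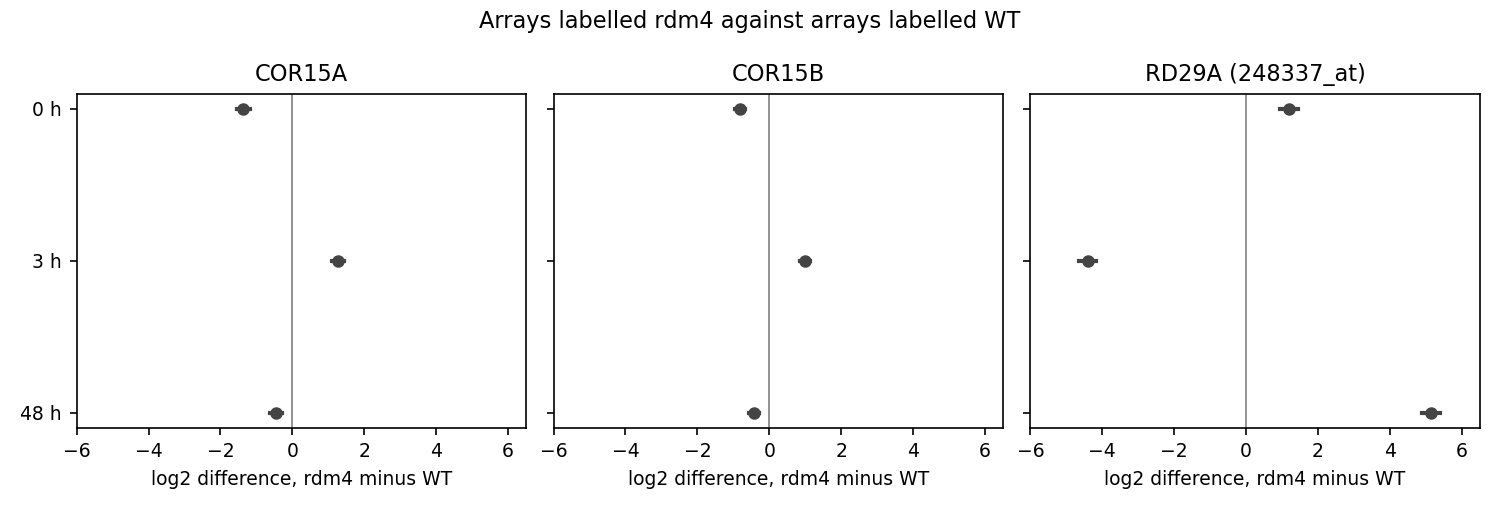
Log2 difference of the arrays labelled rdm4 from those labelled WT (points) with 95% confidence intervals from limma (lines) at 0, 3 and 48 h. COR15A and COR15B run from below 0 at 0 h to above 0 at 3 h and below 0 at 48 h, and 248337_at runs the other way with values of 1.19, -4.41 and 5.14.

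The root markers had the sign of 248337_at at 0 h and 3 h. In rdm4 against WT, 4 of 4 were called higher at 0 h (median 0.82), as were 16.1% of all probe sets. In WT at 0 h the dimmest 30% of probe sets lay below 4.67. EXPA7 was below this level there, at 4.29, and AT5G17820 (4.75) and EXPA18 (4.94) were little above it. The sizes of their differences are therefore uncertain. At 3 h 4 of 4 root markers were lower (median -0.54), as were 19.1% of all. At 48 h 1 of 4 was higher (median 0.09), as were 16.0% of all, with PYK10 at -0.05, AT5G17820 at 0.10, EXPA7 at 0.25 (limma adjusted p = 0.0269) and EXPA18 at 0.07. Against 0 h, 4 of 4 root markers were higher in WT both at 3 h (median 1.27, 23.1% of all probe sets higher) and at 48 h (median 0.72, 24.6% of all). In rdm4 their median was -0.06 at 3 h, and at 48 h 3 of 4 were higher and 1 lower (median 0.27), against 22.8% and 27.8% of all. The leaf markers had medians of -0.08, 0.11 and 0.01 in rdm4 against WT at 0, 3 and 48 h. Of these 1 of 4 was higher at 3 h (17.6% of all probe sets) and 1 of 4 lower at 48 h (19.0% of all). As controls for RNA integrity, probe sets at both ends of a transcript were compared. For GAPDH the 3′ end exceeded the 5′ end by 0.54 to 0.92 log2 units over the 6 groups, for actin by 0.41 to 0.61 and for ubiquitin by 1.00 to 1.06. The part of root tissue and of RNA integrity in these results was not tested.

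A further comparison asks whether the signals of COR15A and COR15B changed by the same amount. Levels of different probe sets are not comparable. The change of their difference within an array is comparable only if both signals follow their transcripts alike, which was not tested. In WT at 48 h COR15A was nearer the top of the range, at rank 6 by brightness on both arrays, with COR15B at ranks 32 and 38. COR15A minus COR15B was 0.27 and 0.19 log2 units on the WT arrays at 0 h, -0.22 and 0.00 at 3 h, and 0.49 and 0.53 at 48 h. On the rdm4 arrays it was -0.40 and -0.26, 0.15 and 0.19, and 0.48 and 0.48. The 4 arrays at 48 h lay above all 8 others. Over both genotypes the difference grew by 0.55 from 0 h to 48 h and by 0.47 from 3 h to 48 h (each exact two-sided permutation p = 0.0286, the smallest that 4 arrays against 4 allow). Adjusted over the 9 tests of 3 pairs of genes and 3 pairs of times, both had p = 0.129 in this exact permutation test, and so few arrays over 9 tests leave little room to pass. From 0 h to 3 h the difference went down on the WT arrays and up on the rdm4 arrays, and their average of 0.08 describes neither. The changes of COR15A or COR15B relative to 248337_at also had opposite signs in the 2 genotypes between any 2 times, so that their averages over genotypes are not given here.

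**Figure D4:**
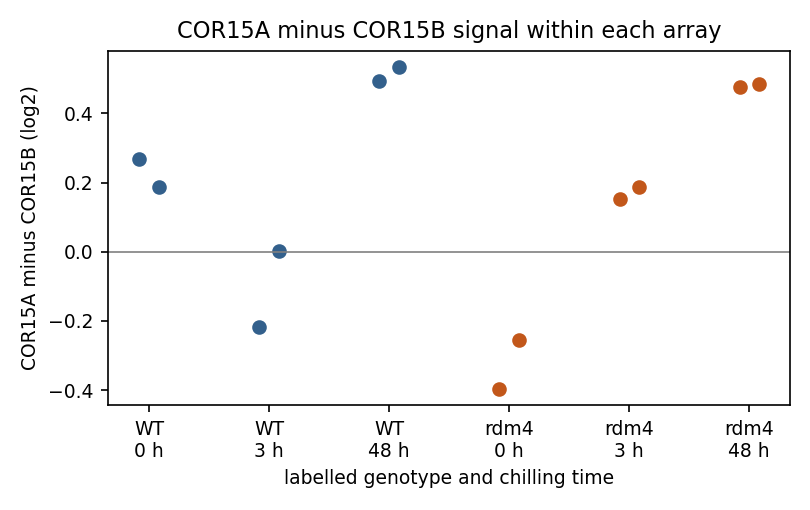
COR15A minus COR15B log2 signal on each of the 12 arrays by labelled genotype and chilling time. The 4 arrays at 48 h lie between 0.48 and 0.53, above all arrays at 0 h and 3 h.

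Of 22 other cold-regulated genes listed, 4 had a named probe set, the dehydrin genes COR47 and LTI30 and the clock-linked genes COR27 and COR28 (AT4G33980). Dehydrins are hydrophilic proteins that protect cells during dehydration. With both genotypes averaged, 2 of 4 at 48 h were called higher and 2 lower, against 27.4% and 30.3% of all probe sets, with a median of 0.74 against -0.01 over all. LTI30 rose by 3.79 and COR47 by 1.59 at 48 h, in the direction of COR15A and COR15B, while COR28 fell by 0.38 and COR27 by 0.12. In rdm4 against WT, 3 of 4 were lower at 0 h, as were 13.7% of all probe sets, and 4 of 4 higher at 3 h, as were 17.6%. At 48 h 1 of 4 was higher and 2 of 4 lower, as were 16.0% and 19.0% of all. LTI30 changed sign over the 3 times as COR15A did, at -0.77, 0.68 and -0.44, and so did COR28 at -0.39, 1.05 and -0.50. COR27 had the same signs, at -0.33, 1.07 and -0.12, and was not called at 48 h (limma adjusted p = 0.198). COR47 was at 0.15, 0.52 and 0.36 and was not called at 0 h (limma adjusted p = 0.150).

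Of 19 listed regulators of the cold response only the zinc finger factor gene STZ had a named probe set, and of 21 genes of abscisic acid and dehydration responses 0 did. In the mean of both genotypes STZ rose by 1.65 at 3 h and by 0.89 at 48 h, but at 48 h it fell by 1.25 in WT and rose by 3.03 in rdm4. In rdm4 against WT, STZ was at -2.04, -0.50 and 2.24 at 0, 3 and 48 h.

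Apart from the 3 genes themselves, the most similar patterns were sought among 2950 named probe sets whose 6 group means span at least 1 log2 unit, by Pearson's r over the 6 group means. These points share their arrays, and r is a description here. For COR15A 19 probe sets had r above 0.95, for COR15B 20 and for 248337_at 15. Most like COR15A were AT1G20100 and AT3G44380 (each r = 0.993), AT5G18550 (0.988), AT2G22080 (0.983) and AT1G50020 (0.982). Most like COR15B were AT2G22080 (r = 0.994), AT1G78070, which encodes a WD40-repeat protein (0.988), AT5G18550 (0.986), AT1G20100 (0.984) and AT3G44380 (0.982), so that 4 of the 5 stand in both lists. The spans of these genes were 1.08 to 3.22 log2 units, that of AT1G78070 being the only one above COR15A's 3.04. The lowest r was that of AT4G22160 (-0.985) and AT1G73040 (-0.980) for COR15A, and of AT2G25590 and the tetraspanin gene TET5 (each -0.990 when rounded) for COR15B.

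Most like the RD29A probe set 248337_at were AT2G04460 and AT3G13910 (each r = 0.983), AT3G14700 (0.982), AT5G40540 (0.977) and SMZ, a floral repressor gene of the AP2 family (0.977). AT2G04460 had group means of 4.30, 6.31 and 4.25 in WT at 0, 3 and 48 h and of 4.50, 4.37 and 7.51 in rdm4, so that its bright groups were the same 2 as those of 248337_at. Their spans were 1.07 to 3.26 log2 units, all below that of 248337_at. The lowest r was -0.954 for both LPA66, a gene for a chloroplast RNA-editing protein, and CFM3B, a gene for an RNA-binding protein.

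**Figure D5:**
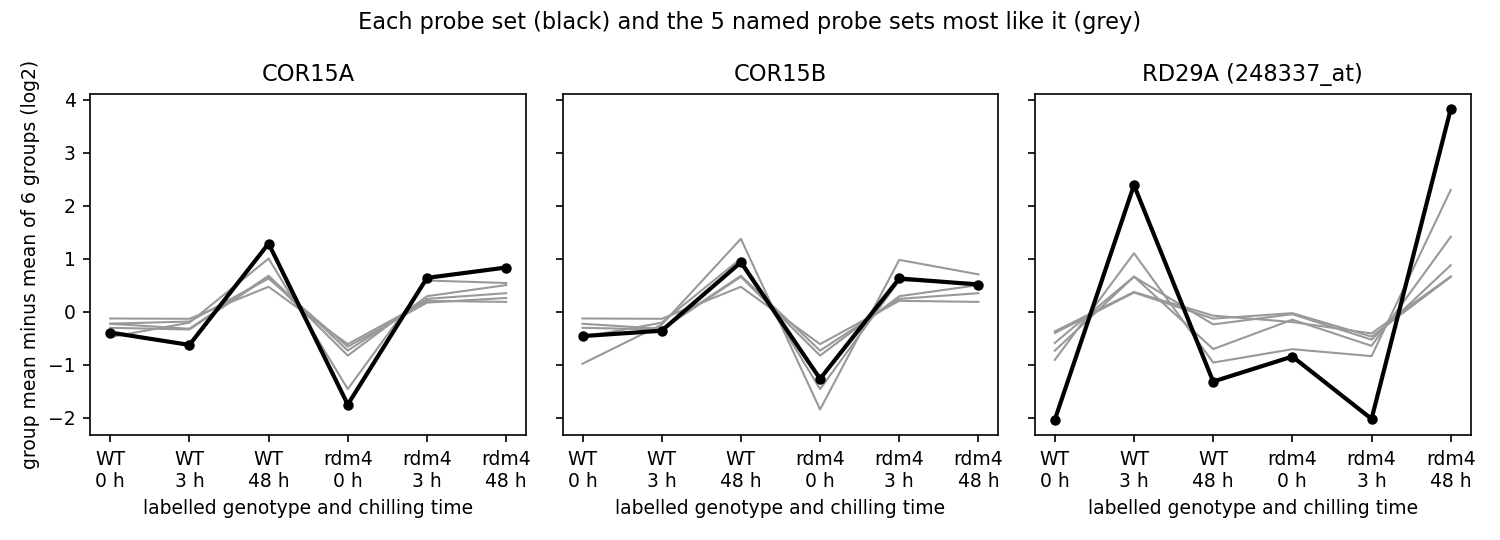
Group means of each of the 3 probe sets (black) and of the 5 named probe sets most like it (grey), each minus its own mean over the 6 groups, in log2 units. COR15A and COR15B are lowest in rdm4 at 0 h and highest in WT at 48 h, and 248337_at peaks in WT at 3 h and rdm4 at 48 h.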

How the data were processed

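Leaf RNA of 12 samples was measured on ATH1 arrays. The deposited values are log2 signals, as found from their range. Their summarisation and normalization are not given in the sources used here, and 7 of the 12 arrays share the same highest value. The values were used as deposited. Of 22810 probe sets, 64 controls were left out. The platform table pairs 13513 probe sets with 1 gene and 503 with several (given no name), and 8730 have no entry. Names were updated by gene number through the RefSeq table of TAIR10.1.

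The 12 arrays entered a linear model with 1 mean per group, using limma 3.58.1 under R 4.3.3 (lmFit, eBayes, 6 residual and 5.97 prior degrees of freedom), with Benjamini-Hochberg adjustment over all probe sets. On simulated data for the 48 h response in WT, all 100 changes of 2 log2 units and 74 of 100 of 0.5 were recovered. There were 14 false calls among the unchanged probe sets. Far fewer probe sets were changed there than the 50.4% called in the real comparison, so these rates need not hold for it. The number of arrays limits the precision, and background was not measured.

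Groups and replicate numbers come from the titles. Alternatives were repeated quantile normalization, median centring, leaving out the dimmest 30% of probe sets, fewer arrays in the fit, trend and robust estimation, a replicate block and leaving out each array. The members, lists and tests were chosen with earlier results of these data known. Genes named beside the 3 are those of the fixed lists with a named probe set, the 3 genes on either side in the RefSeq order, and the 5 most and 2 least alike by r. No promoter or protein sequence was used here.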

Additional observations from a re-analysis of the deposited data

Results flagged for a closer look

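The response to chilling differed between the arrays labelled WT and rdm4 for each of the 3 probe sets at both times, as the interaction term of the limma fit showed. Of all probe sets 43.2% were called for this term at 3 h and 22.2% at 48 h. For COR15A the difference of the responses, rdm4 minus WT, was 2.62 at 3 h and 0.91 at 48 h. For COR15B it was 1.79 at 3 h and 0.39 at 48 h. For the RD29A probe set 248337_at it was -5.60 at 3 h and 3.95 at 48 h, so that its sign changed between the times. The values at 3 h rest on the genotype labels of the 3 h arrays, and whether these were exchanged was not tested. The values at 48 h do not use the 3 h arrays. Groups of 2 arrays are too small to look for arrays far from the others.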

How the results depend on the processing

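Of 42 results, the 3 probe sets in 14 comparisons, 38 kept their direction and their side of the threshold under every alternative. Of 774 repeats 0 changed direction, but many of them could not. Only repeated quantile normalization, centring and leaving out an array of a compared group can change a log2 difference here. The other repeats can change only its adjusted p. The fall of COR15A in WT at 3 h (-0.23) was lost in the compared arrays alone (limma adjusted p = 0.0629) and lay between -0.31 and -0.15 when single arrays were left out. COR15B in WT at 3 h was at 0.10 and passed with trend and robust estimation (adjusted p = 0.0475). COR15A at 48 h against 3 h in rdm4 passed after quantile normalization (0.27), centring (0.22), and at 0.20 without the dimmest 30% of probe sets, without the unused 0 h arrays and with trend and robust estimation, and lay between 0.17 and 0.22 when single arrays were left out. COR15B there was at -0.11 and passed with trend and robust estimation (adjusted p = 0.0237). The causes were not tested. The same values of these 4 results came from the replicate block (-0.23, 0.10, 0.20 and -0.11), which changed no call, and the counts of called probe sets stayed within 1.5 times in all 14 comparisons. The replicate numbers were not taken to pair the samples, since the correlation of the replicate deviations between groups was from -0.15 to 0.27 over 15 pairs of groups and no label ties a number to a growth chamber. Whether a number stands for a chamber is not known.

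The 9 tests of unequal change pool both genotypes and can hardly pass with 4 arrays at a time, so their lack of calls says nothing about equal change. Where the genotypes moved in opposite directions, the sign of the average depends on the weight of each genotype. Leaving out 1 of the 4 arrays at a time gives the genotypes unequal weight. COR15A minus 248337_at from 0 h to 3 h was 0.45 without WT 3 h replicate 1 and 0.35 without replicate 2. The ranges below therefore do not measure how far a result rests on a single array. COR15A minus 248337_at from 3 h to 48 h was 0.016 after quantile normalization. When single arrays were left out, it lay between -1.01 and 0.95 from 3 h to 48 h, between -1.49 and 0.45 from 0 h to 3 h and between -1.54 and 0.40 from 0 h to 48 h. COR15B minus 248337_at lay between -1.53 and 0.29 from 0 h to 3 h and between -1.46 and 0.48 from 3 h to 48 h, and COR15A minus COR15B between -0.035 and 0.19 from 0 h to 3 h. For comparisons of genotypes at 1 time, leaving out the unused times is the fit of the compared arrays. With 1 array left in a group, its spread was taken from the other groups. The dim signal of 248337_at limits the size of its changes.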

Other observations

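Named probe sets of genes next to the 3 in the RefSeq gene order had mean 48 h responses between -0.50 and 0.21. Of the 3 genes on either side of COR15A and COR15B, 3 had a named probe set. AT2G42520, a DEAD-box RNA helicase gene next to COR15B, was at 0.21 in the mean 48 h response (limma adjusted p = 0.0107) and AT2G42560, a gene for a late embryogenesis abundant protein, was at -0.08 (adjusted p = 0.261). TBL39 was at 0.04 at 48 h (adjusted p = 0.718) and rose by 0.48 at 3 h. Of the genes around RD29A, AT5G52280 fell by 0.50 at 48 h and AT5G52330 was at -0.18 (adjusted p = 0.0901). RD29B (LTI65), the direct neighbour, was not analysed here. In rdm4 against WT, AT5G52280 was at -0.46, -0.04 and -0.61 at 0, 3 and 48 h and AT5G52330 at 0.03, -0.05 and -0.17.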
